A study of Mus musculus with 14 samples.

Results

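The amino acid transporters described here are 10 genes of 24015 in the deposited table, taken by symbol: Slc7a1, Slc7a2, Slc7a3, Slc7a5, Slc7a11, Slc3a2, Slc1a4, Slc1a5, Slc38a2 and Slc6a9. All 10 had counts in each of 14 libraries and passed the filter on low counts. Total RNA was sequenced from mouse embryonic fibroblasts, connective-tissue cells grown from embryos of day 14.5, of strain 129s2, at passages 3 to 4. The cells were SirT7-/- or wild type and were kept for 18 hours in glucose-free medium (GS) or normal medium (NT). This gives SirT7-/- cells starved of glucose (KO-GS, n = 3) or fed (KO-NT, n = 4) and wild-type cells starved (WT-GS, n = 3) or fed (WT-NT, n = 4). SirT7 is an NAD-dependent enzyme of the sirtuin family, and the study asks how it bears on the response to glucose starvation. How the deletion was made and whether replicates are separate embryos or cultures are not given in the sources used here, so p-values measure only the spread between these libraries, which may be technical.

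Amino acids cross the plasma membrane through carriers with overlapping substrates. Slc7a1, Slc7a2 and Slc7a3 carry arginine and lysine. Slc7a5 and Slc7a11 are light chains that reach the membrane bound to the heavy chain Slc3a2: with Slc7a5 the pair exchanges large neutral amino acids such as leucine, and with Slc7a11 it imports cystine in exchange for glutamate, which feeds glutathione synthesis. Slc1a4 exchanges alanine, serine, cysteine and threonine, Slc1a5 exchanges neutral amino acids including glutamine, Slc38a2 imports small neutral amino acids with sodium, and Slc6a9 imports glycine. Several of these genes are known targets of the transcription factor ATF4, the effector of the integrated stress response, which is controlled largely at translation.

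Total counts per library ran from 59788270 to 91607861, and levels are given as CPM, counts scaled so that every library sums to the same total, without correction for gene length. Sirt7 itself stood at 0.301, 0.475 and 0.394 CPM in KO-GS and 1.02, 1.39, 1.41 and 0.557 CPM in KO-NT, against 16.9 to 17.6 CPM in WT-GS and 17.9 to 23.1 CPM in WT-NT. The genotype labels and the Sirt7 counts therefore match in all 14 libraries. The match to the media labels was less complete. For the 7 transporters that passed the test in starved wild-type cells, each library was placed on a line with 0 at the WT-NT mean and 1 at the WT-GS mean of log2 CPM. For this line the CPM values were also scaled between libraries with TMM factors. The library labelled KO-NT 4 had a median position of 1.01 (range 0.53 to 1.54), while KO-NT 1 to 3 had medians of -0.18, 0.05 and -0.20. The library labelled KO-GS 3 had a median of -0.04 (range -0.52 to 0.31), while KO-GS 1 and 2 had medians of 1.05 and 0.92. These libraries thus lay with the other medium. Whether their media labels were exchanged was not tested; the labels were kept, and each comparison in SirT7-/- cells is given with and without them. Fibroblast markers were abundant in every library, and macrophage markers were measurable in all and varied widely, with summed levels of 122.2 to 1178 CPM in KO-GS, 433 to 790.3 CPM in KO-NT, 13.9 to 385 CPM in WT-GS and 337 to 2214 CPM in WT-NT. In bulk RNA, fewer cells of a type and less RNA per cell cannot be told apart.

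**Figure D1:**
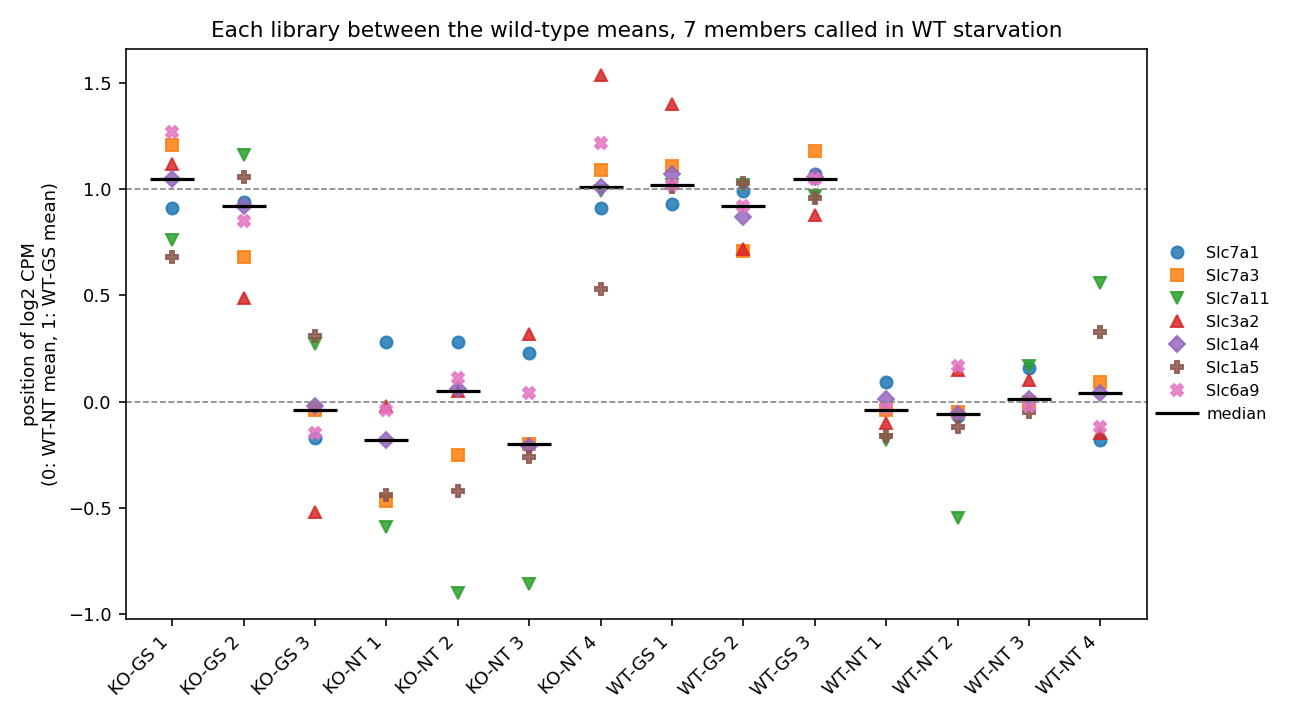
Position of each library (horizontal axis) for the 7 transporters called in starved wild-type cells. The scale is log2 CPM with TMM factors, where 0 is the WT-NT mean and 1 the WT-GS mean. Symbols are genes and black bars are medians. The library labelled KO-NT 4 sits near 1 (median 1.01) and the library labelled KO-GS 3 near 0 (median -0.04), apart from the other libraries of their groups.

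The first comparison asks how wild-type fibroblasts change these carriers after 18 hours without glucose. Of the 10 transporters, 5 rose (Slc7a1, Slc7a3, Slc3a2, Slc1a4 and Slc6a9) and 2 fell (Slc7a11 and Slc1a5) at an adjusted p under 0.05 by edgeR's quasi-likelihood test with Benjamini-Hochberg adjustment over 15666 genes. Slc7a2, Slc7a5 and Slc38a2 did not pass. Over all genes tested, 5129 or 32.7% were called, 16.4% higher and 16.4% lower. The median log2 change was 0.80 over the 10 transporters and -0.04 over all genes tested. Leaving out WT-GS 1, WT-GS 2 or WT-GS 3 lowered the count of called genes to 2830, 3345 and 2789 and the count of called transporters to 6 in each case. In CPM, the libraries of the starved and normal groups did not overlap for 9 of the 10 transporters, 6 higher and 3 lower. This compares with 44.6% of all genes tested, 19.9% higher and 24.8% lower. With TMM factors, the scaling between libraries that edgeR uses, the groups of Slc38a2, counted here as lower, did overlap.

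**Figure D2:**
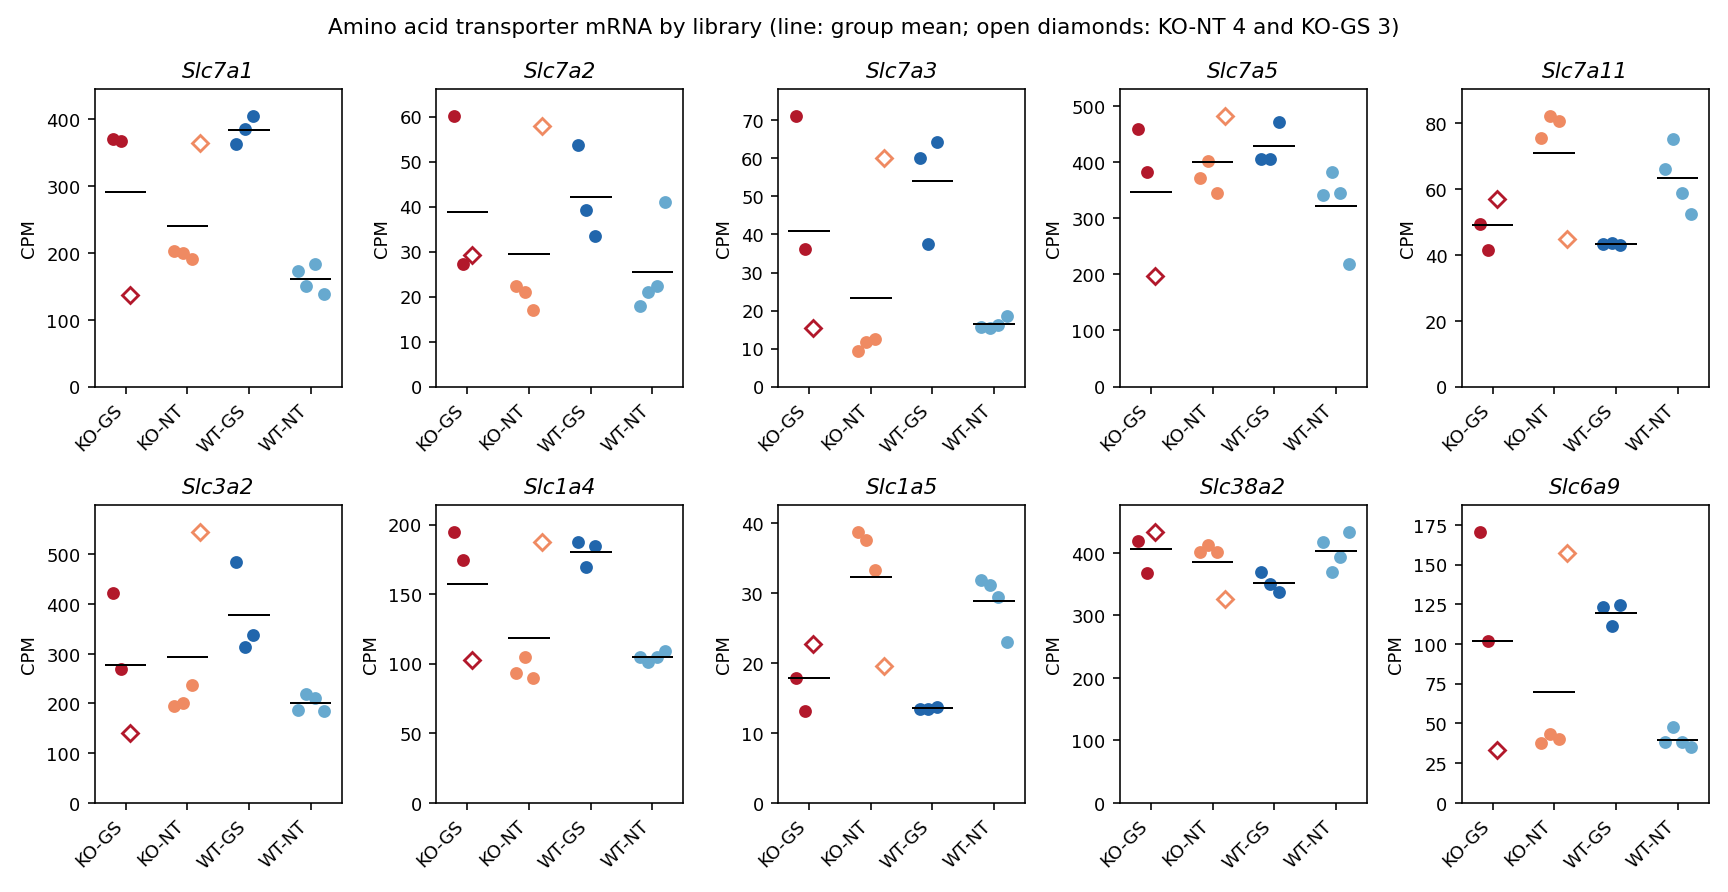
Level of each transporter in CPM (vertical axis, starting at 0) in the 14 libraries, by group; each point is a library, black lines are group means, and open diamonds are the libraries labelled KO-GS 3 and KO-NT 4. In wild-type cells the WT-GS points of Slc7a1 (363 to 405 CPM) lie above the WT-NT points (138 to 184 CPM), and those of Slc1a5 (13.4 to 13.6 CPM) lie below them (22.9 to 31.8 CPM).

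Among the carriers of arginine and lysine, Slc7a1, the widely expressed member of the trio, had 363, 386 and 405 CPM in WT-GS, against 174, 150.0, 184 and 138 CPM in WT-NT. The starved libraries lay close together, all well above the highest library in normal medium. The log2 change was 1.296 (SE 0.12, edgeR adjusted p = 0.000427), with means of 384.8 ± 21.01 CPM in WT-GS and 162 ± 20.99 CPM in WT-NT (SD, n = 3 and 4). Slc7a3, a carrier of the same substrates with a narrower tissue range, had 60.003, 37.6 and 64.4 CPM in WT-GS, against 15.6, 15.4, 16.3 and 18.5 CPM in WT-NT. WT-GS 2 was the lowest starved library and still lay above all libraries in normal medium. Its log2 change of 1.76 (SE 0.19, adjusted p = 0.000692 by edgeR) was the largest point estimate among the 10 transporters, and that of Slc6a9, given further on, lay within 1 SE of it. Slc7a2 had 53.8, 39.1 and 33.4 CPM in WT-GS, against 17.9, 21.01, 22.4 and 40.95 CPM in WT-NT. In CPM it was the only transporter of the 10 whose groups overlapped, through WT-NT 4. Its log2 change of 0.77 (SE 0.29) had an edgeR adjusted p of 0.0794, and without WT-NT 4 it was 1.08 with an adjusted p of 0.00404. It passed by DESeq2 (0.77, adjusted p = 0.0260) and, by edgeR with the replicate numbers as a block, at 1.06 (adjusted p = 0.0161). Slc7a2 is also expressed by macrophages, whose summed markers stood at 677 CPM in WT-NT 4, within the range of its group, and at 385, 13.9 and 317 CPM in WT-GS 1, 2 and 3; the part of these cells in the Slc7a2 values was not tested.

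Per kilobase of exon, the 3 arginine and lysine carriers summed to 77.0 ± 5.59 CPM per kb in WT-GS and 31.1 ± 2.20 CPM per kb in WT-NT (SD, n = 3 and 4). Slc7a1 made up most of that sum in both media, with 69.8 ± 5.22% in WT-GS and 72.2 ± 5.999% in WT-NT. The share of Slc7a3 was 23.9 ± 4.996% in WT-GS and 18.2 ± 1.97% in WT-NT, and the libraries of the 2 groups overlapped.

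The heavy chain Slc3a2 had 485, 313 and 338 CPM in WT-GS, against 186, 219, 212 and 184 CPM in WT-NT. All starved libraries lay above all libraries in normal medium, with WT-GS 1 the highest. The log2 change was 0.96 (SE 0.16, edgeR adjusted p = 0.00422); with 1 spread shared over all 14 libraries the adjusted p was 0.0724. Its light chains are Slc7a5 and Slc7a11. Slc7a5 had 405.8, 405 and 472 CPM in WT-GS, against 341, 382.5, 344 and 218 CPM in WT-NT, so the groups did not overlap, but the log2 change of 0.45 (SE 0.19) did not pass (edgeR adjusted p = 0.103). WT-NT 4 was the lowest library, and without it the change was smaller, at 0.30, and passed with an adjusted p of 0.0473. Slc7a11 had 43.2, 43.7 and 43.2 CPM in WT-GS, against 66.3, 75.4, 58.9 and 52.6 CPM in WT-NT. The 3 starved libraries were nearly equal and all below the lowest library in normal medium. Slc7a11 fell, with a log2 change of -0.50 (SE 0.13, edgeR adjusted p = 0.0219), although the call was lost without WT-GS 1, WT-GS 2, WT-GS 3 or WT-NT 1 (adjusted p of 0.0765, 0.0696, 0.0730 and 0.0574) and with 1 spread over all libraries (0.0760).

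Because both light chains bind Slc3a2, their counts were also set against it within each library as a log2 ratio. For Slc7a11 the ratio was -3.49, -2.84 and -2.97 in WT-GS, against -1.49, -1.54, -1.85 and -1.81 in WT-NT. The groups did not overlap, and the difference of -1.43 gave an exact two-sided permutation p of 0.0571, the smallest that 3 against 4 libraries allow. For Slc7a5 the ratio was -0.26, 0.37 and 0.48 in WT-GS, against 0.87, 0.80, 0.70 and 0.25 in WT-NT, which overlap; the difference was -0.46 (exact two-sided permutation p = 0.171).

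**Figure D3:**
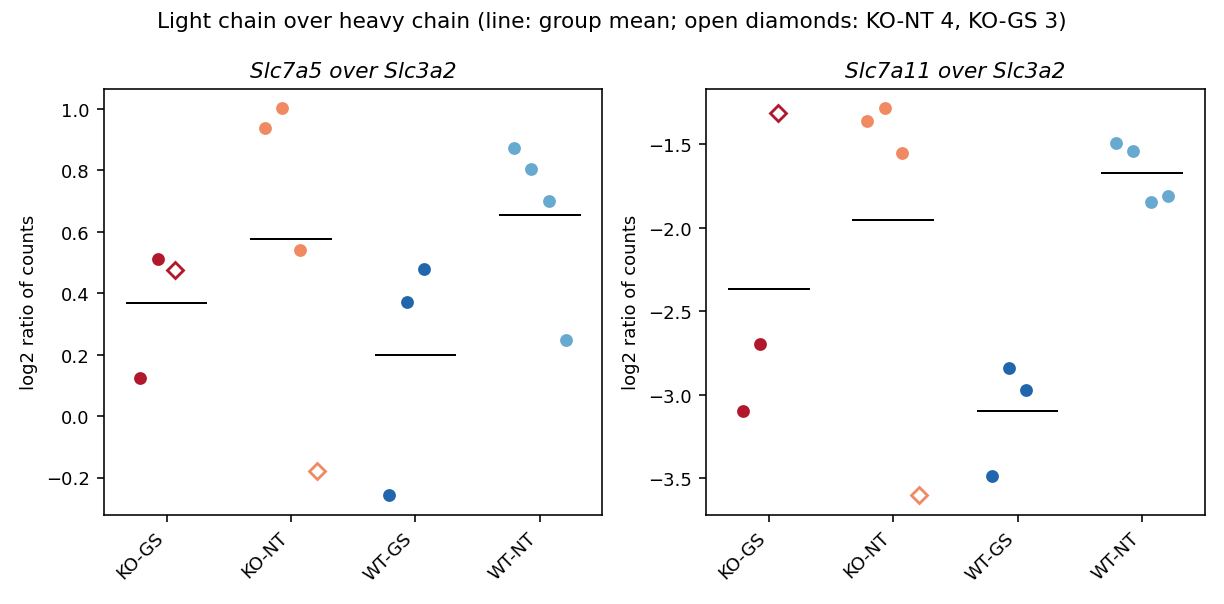
Log2 ratio of light-chain to heavy-chain counts (vertical axis) for Slc7a5 and Slc7a11 over Slc3a2 in each library, by group; lines are group means and open diamonds are the libraries labelled KO-GS 3 and KO-NT 4. The Slc7a11 ratio lies between -3.49 and -2.84 in WT-GS and between -1.85 and -1.49 in WT-NT.

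The pair of related exchangers Slc1a4 and Slc1a5 moved in opposite directions. Slc1a4 had 188, 169.6 and 184 CPM in WT-GS, against 105, 101, 105 and 109 CPM in WT-NT. Both groups were narrow and lay well apart, and the log2 change was 0.83 (SE 0.07, edgeR adjusted p = 0.000354). Slc1a5 had 13.4, 13.4 and 13.6 CPM in WT-GS, against 31.8, 31.2, 29.4 and 22.9 CPM in WT-NT. Each starved library was below each library in normal medium, including WT-NT 4, the lowest of its group. The log2 change was -1.05 (SE 0.14, edgeR adjusted p = 0.00144). Means were 13.5 ± 0.136 CPM in WT-GS and 28.8 ± 4.07 CPM in WT-NT (SD, n = 3 and 4).

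Slc6a9, the glycine carrier, had 123, 111 and 125 CPM in WT-GS, against 38.0, 48.0, 38.3 and 34.9 CPM in WT-NT. The log2 change was 1.63 (SE 0.12), and the adjusted p of 0.000227 by edgeR was the smallest among the 10 transporters. Slc38a2, a carrier that cells are known to induce when amino acids run short, had 369.46, 350.5 and 338 CPM in WT-GS, against 417, 369.50, 394 and 433 CPM in WT-NT. The highest starved library lay just under the lowest library in normal medium, and the log2 change of -0.15 (SE 0.08) did not pass the test (edgeR adjusted p = 0.200).

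Levels of different genes can be compared only per length, here as CPM per kb of annotated exon. In normal medium (WT-NT) the order was Slc7a5 at 91.4 ± 20.3, Slc38a2 at 86.6 ± 5.96, Slc3a2 at 66.3 ± 5.91, Slc1a4 at 26.7 ± 0.813, Slc7a1 at 22.5 ± 2.92, Slc6a9 at 10.8 ± 1.55, Slc1a5 at 10.4 ± 1.47, Slc7a11 at 6.43 ± 0.998, Slc7a3 at 5.65 ± 0.490 and Slc7a2 at 2.95 ± 1.20 CPM per kb (SD, n = 4). The libraries of 3 neighbouring pairs in that order overlapped: Slc7a5 with Slc38a2, Slc6a9 with Slc1a5, and Slc7a11 with Slc7a3. In WT-GS Slc3a2 had the highest mean, 125.4 ± 30.8 CPM per kb, beside Slc7a5 at 121.6 ± 10.9 CPM per kb (SD, n = 3), a gap within their spread. Slc7a1 stood above Slc1a4 in WT-GS, at 53.6 ± 2.93 against 46.0 ± 2.46 CPM per kb, the reverse of their order in WT-NT.

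Sequences of 300 bases around the annotated start, 250 before it and 50 after it, were available from RefSeq on build GRCm38.p6 for 6 of the 10 genes, all but Slc7a2, Slc7a3, Slc7a5 and Slc1a5. They were searched on both strands for TGATGNAA, the core of amino acid response elements that ATF4 binds, for TGACNNNGC, the core of antioxidant response elements, and for CACGTG, the E-box. TGATGNAA was found in 3.97% of 32851 mouse promoters in the same table, TGACNNNGC in 12.4% and CACGTG in 7.15%. Some genes have several promoters there, and the 6 transporters had 9, of which 2 held TGATGNAA, 4 TGACNNNGC and 0 CACGTG. Among the transporters TGATGNAA stood in the promoters of Slc7a11 and Slc1a4. These are shown because they hold the same motif while Slc7a11 fell and Slc1a4 rose in starved wild-type cells. TGACNNNGC stood in promoters of Slc7a1, Slc38a2 and Slc6a9, and CACGTG in none of those searched. Both sequences run 5′ to 3′ on the gene's own strand, the minus strand, and hold neither of the other motifs, with each match to TGATGNAA, in either orientation, in capitals, in Slc7a11 at chr3:50443564-50443863 and in Slc1a4 at chr11:20332664-20332963.
Slc7a11: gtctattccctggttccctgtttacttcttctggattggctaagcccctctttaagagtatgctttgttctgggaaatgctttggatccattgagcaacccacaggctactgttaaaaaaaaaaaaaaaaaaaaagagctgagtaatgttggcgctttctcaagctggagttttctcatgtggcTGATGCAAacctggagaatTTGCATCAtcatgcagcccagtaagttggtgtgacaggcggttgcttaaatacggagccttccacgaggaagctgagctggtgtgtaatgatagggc
Slc1a4: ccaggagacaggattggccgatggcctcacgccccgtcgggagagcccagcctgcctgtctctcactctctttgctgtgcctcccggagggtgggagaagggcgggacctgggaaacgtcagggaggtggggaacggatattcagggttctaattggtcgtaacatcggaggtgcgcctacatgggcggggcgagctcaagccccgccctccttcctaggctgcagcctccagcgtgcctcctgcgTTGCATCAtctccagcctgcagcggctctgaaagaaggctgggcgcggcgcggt
In Slc7a11 the matches begin 66 and 47 bases before the annotated start, the first on the gene's strand and the other on the opposite strand. In Slc1a4 the match begins 4 bases before the start, on the strand opposite to the gene. A match describes these letters only and does not show that a factor binds there.

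The second comparison asks whether SirT7-/- fibroblasts show the same starvation response. With the libraries as labelled, edgeR called 0 of the 10 transporters and 0 of 15666 genes (0%), although 2288 genes and 1 transporter, Slc1a5, had an unadjusted p under 0.05 while DESeq2 called 626 genes and limma-voom 0, both with 0 transporters. The library labelled KO-GS 3 lay low, and the library labelled KO-NT 4 high, for most carriers, so no transporter had groups that did not overlap, against 12.4% of all genes tested. For Slc7a1 the values were 370.3, 368 and 136 CPM in KO-GS, against 203, 200.0, 191 and 365 CPM in KO-NT, and the log2 change was 0.26 (SE 0.39, edgeR adjusted p = 0.739). Without KO-NT 4 alone, edgeR called 2069 genes and 2 transporters, Slc7a11 at -0.73 and Slc1a5 at -1.06 (adjusted p of 0.0256 and 0.0300).

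Without both of these libraries, KO-GS 1 and 2 against KO-NT 1 to 3 gave 5 transporters higher and 2 lower, by edgeR, among 5980 genes or 38.2% called, and the 7 were the same genes, in the same directions, as in wild-type cells. The libraries were left out for their position between the media, so these calls describe what remains and are no separate evidence. Slc7a1 had 370.3 and 368 CPM in KO-GS 1 and 2, against 203, 200.0 and 191 CPM in KO-NT 1 to 3, a log2 change of 0.86 (SE 0.06). Slc7a3 had 71.1 and 36.2 CPM in those KO-GS libraries, against 9.25, 11.8 and 12.5 CPM in KO-NT 1 to 3, a change of 2.22 (SE 0.30).

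Slc6a9 had 170.4 and 102 CPM in KO-GS 1 and 2, against 37.4, 43.6 and 40.0 CPM in KO-NT 1 to 3 (log2 change 1.71, SE 0.21). Slc1a4 had 195 and 174 CPM in KO-GS 1 and 2, against 93.2, 105 and 89.7 CPM in KO-NT 1 to 3 (0.91, SE 0.09), and Slc3a2 had 421.5 and 268 CPM, against 194, 200.3 and 237 CPM (0.67, SE 0.20). Slc3a2 reversed its sign here, since its log2 change with all libraries was -0.11 (SE 0.48), and its adjusted p of 0.0499 lay at the threshold. Of those that fell, Slc7a11 had 49.3 and 41.5 CPM in KO-GS 1 and 2, against 75.7, 82.2 and 80.8 CPM in KO-NT 1 to 3 (-0.85, SE 0.09), and Slc1a5 had 17.8 and 13.1 CPM, against 38.7, 37.6 and 33.2 CPM (-1.28, SE 0.14). Slc7a2, Slc7a5 and Slc38a2 did not pass, with changes of 1.07, 0.14 and -0.08. The change of Slc7a2 was larger than those of Slc1a4 and Slc3a2, which passed. Slc7a2 had 60.1 and 27.2 CPM in KO-GS 1 and 2, against 22.3, 21.03 and 16.9 CPM in KO-NT 1 to 3, which did not overlap. Groups did not overlap for 8 of the 10 transporters, against 64.0% of all genes tested.

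**Figure D4:**
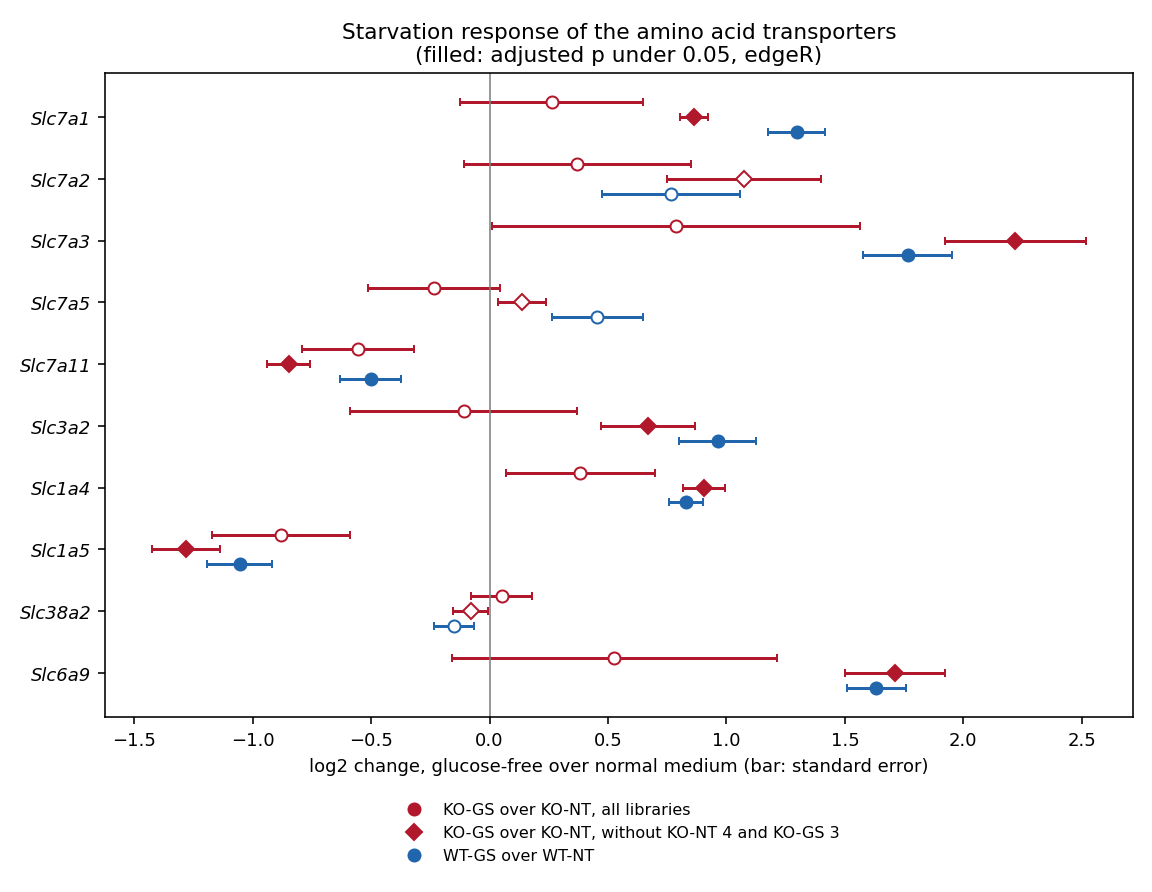
Log2 change in glucose-free over normal medium (horizontal axis; bars are standard errors) for each transporter in SirT7-/- cells with all libraries, in SirT7-/- cells without the libraries labelled KO-GS 3 and KO-NT 4, and in wild-type cells; filled symbols passed an adjusted p under 0.05 by edgeR. No transporter is filled in SirT7-/- cells with all libraries, and 7 are filled in the other 2 fits.

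The log2 ratio of Slc7a11 to Slc3a2 was -3.10, -2.69 and -1.31 in KO-GS, against -1.36, -1.28, -1.55 and -3.60 in KO-NT, with KO-GS 3 and KO-NT 4 at the far ends of their groups. The difference was -0.42 with all libraries (exact two-sided permutation p = 0.686) and -1.50 without those libraries, where the p of 0.2 is the smallest that 2 against 3 libraries allow. For Slc7a5 over Slc3a2 the differences were -0.21 and -0.51 (exact p of 0.514 and 0.2).

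The remaining comparisons ask what the loss of SirT7 does within a medium, and whether the starvation response differs between genotypes. They share libraries with the comparisons above. In glucose-free medium, KO-GS against WT-GS, edgeR called 1 of 15666 genes (0.00638%), Sirt7 itself at -5.51, and 0 of the 10 transporters; 537 genes and 0 transporters had an unadjusted p under 0.05, and DESeq2 called 14 genes and 0 transporters. Sirt7 was also the gene called in normal medium, KO-NT against WT-NT, at -4.18, with 0 transporters; 582 genes had an unadjusted p under 0.05, and DESeq2 called 52 genes and 0 transporters. The Sirt7 call was lost without WT-GS 1 or WT-GS 3 in glucose-free medium and without KO-NT 1 or WT-NT 2 in normal medium, where no gene was called, while 4 genes were called without KO-GS 3, 5 without KO-NT 4 and 3 without WT-NT 4.

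In normal medium Slc7a1 had the smallest unadjusted p of the transporters, 0.0230, with an edgeR adjusted p of 0.999 and a log2 change of 0.59 (SE 0.21). It had 203, 200.0, 191 and 365 CPM in KO-NT, against 174, 150.0, 184 and 138 CPM in WT-NT. It was the 1 transporter whose groups did not overlap, and 3.27% of all genes tested did not. Without KO-NT 4 its change was 0.33 (SE 0.11, adjusted p = 0.735 by edgeR), again with no overlap.

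That comparison without KO-NT 4 had 0 transporters called among 5 genes (0.0319%), and Slc7a3, Slc7a11 and Slc1a5 also did not overlap, 4 of 10 against 9.77% of all genes tested. Slc7a3 had 9.25, 11.8 and 12.5 CPM in KO-NT 1 to 3, against 15.4 to 18.5 CPM in WT-NT, a log2 change of -0.52 (SE 0.14); with KO-NT 4 at 60.1 CPM it was 0.53 (SE 0.56). Slc7a11 had 75.65 to 82.2 CPM in KO-NT 1 to 3, against 52.6 to 75.38 CPM in WT-NT, which left the groups barely apart, at 0.37 (SE 0.13). Slc1a5 had 33.2 to 38.7 CPM in KO-NT 1 to 3, against 22.9 to 31.8 CPM in WT-NT, at 0.38 (SE 0.13). The adjusted p-values of these 3 and Slc7a1 ran from 0.586 to 0.735, so none passed.

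In glucose-free medium the transporters' log2 changes, KO-GS over WT-GS, ran from -0.50 for Slc3a2 (SE 0.39) to 0.37 for Slc1a5 (SE 0.20), and none had groups that did not overlap, against 10.8% of all genes tested. Without KO-GS 3, where 4 genes (0.0255%) and 0 transporters were called and 0 transporters had groups apart against 16.6% of all genes tested, they ran from -0.18 for Slc3a2 (SE 0.27) to 0.15 for Slc1a5 (SE 0.14). Slc1a4 then had 195 and 174 CPM in KO-GS 1 and 2, against 188, 169.6 and 184 CPM in WT-GS, with a change of -0.01 (SE 0.09).

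The test of the difference between the genotypes' responses called 0 of the 10 transporters and 0 of 15666 genes (0%) by edgeR; 950 genes and 1 transporter had an unadjusted p under 0.05, while DESeq2 called 5 genes and limma-voom 0, both with 0 transporters. That transporter was Slc7a1, at -1.03 (SE 0.43, unadjusted p = 0.0329, edgeR adjusted p = 0.680). Without the libraries labelled KO-GS 3 and KO-NT 4 its difference was -0.43 (SE 0.16, unadjusted p = 0.0184, adjusted p = 0.988), in the same direction, and edgeR called 0 genes with 508 at an unadjusted p under 0.05. For Slc6a9 the difference was -1.11 (SE 0.75) with all libraries and 0.08 (SE 0.25) without these, a reversal, and Slc7a3 likewise gave -0.98 (SE 0.86) and 0.45 (SE 0.36).

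Genes around the transporters were read from lists of related carriers and pathways. Of 47 other amino acid carriers, 30 were abundant enough to test in wild-type starvation, of which 6 rose and 5 fell by edgeR, a share near the 32.7% called over all genes (16.4% higher and 16.4% lower). Their median log2 change was 0.07, against -0.04 over all genes tested. Slc6a12, which carries GABA and the osmolyte betaine, stood at 4.41, 7.06 and 4.77 CPM in WT-GS, against 0.397, 0.0673, 0.0540 and 0.145 CPM in WT-NT. It was low in all libraries, with the media far apart, and had a log2 change of 5.07 (SE 0.66, edgeR adjusted p = 0.00150). WT-NT 2 and WT-NT 3 lay near the floor, as a count of 0 there allows up to 0.0337 and 0.0405 CPM. The size of the change is therefore uncertain, and it ran from 4.79 to 5.94 over the alternatives. Slc6a15, a carrier of branched-chain amino acids and proline, rose by 1.73 (SE 0.24), to 13.2 ± 2.30 CPM in WT-GS against 4.12 ± 1.31 CPM in WT-NT. Slc38a9, the lysosomal arginine sensor of mTORC1, rose by 0.63 (SE 0.13), to 19.1 ± 0.781 CPM against 12.7 ± 1.82 CPM.

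Carriers that fell included Slc1a3, a glutamate and aspartate carrier, with 5.22, 3.88 and 3.89 CPM in WT-GS, against 22.7, 29.6, 21.9 and 24.7 CPM in WT-NT. Its log2 change was -2.47 (SE 0.17, edgeR adjusted p = 0.000165). Slc38a4, a relative of Slc38a2 with many neutral substrates, fell by 2.08 on the log2 scale (SE 0.33), to 17.6 ± 3.95 CPM in WT-GS against 76.6 ± 27.0 CPM in WT-NT. Slc6a6, the taurine carrier and family relative of Slc6a9, had 223 ± 20.1 CPM in WT-GS and 238 ± 49.3 CPM in WT-NT and did not pass (log2 change -0.06, SE 0.17). Slc38a7 and Pqlc2, both lysosomal, and Slc1a6 also passed with higher levels, and Slc6a17, Slc43a2 and Slc38a6 with lower ones, but these calls were less stable. Slc38a7, Slc6a17, Pqlc2 and Slc1a6 lost theirs with 1 spread over all 14 libraries, Pqlc2 also without WT-GS 1 or 3, and Slc1a6 also without WT-GS 1, 2 or 3 or WT-NT 3. Slc38a6 lost its call without WT-GS 1, 2 or 3 or WT-NT 1, and Slc43a2 without WT-GS 1, 2 or 3 or WT-NT 1, 3 or 4, with no filter on low counts, and with limma-voom. The adjusted p in these cases ran from 0.0528 to 0.134, by edgeR except for limma-voom. In SirT7-/- cells 0 of the 30 were called with all libraries, as were 0% of all genes. Without the libraries labelled KO-GS 3 and KO-NT 4, 10 rose and 7 fell, against 19.4% of all genes higher and 18.8% lower, and Slc6a12 changed by 4.27 (SE 0.66), Slc6a15 by 2.59 (SE 0.20) and Slc1a3 by -2.45 (SE 0.33).

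**Figure D5:**
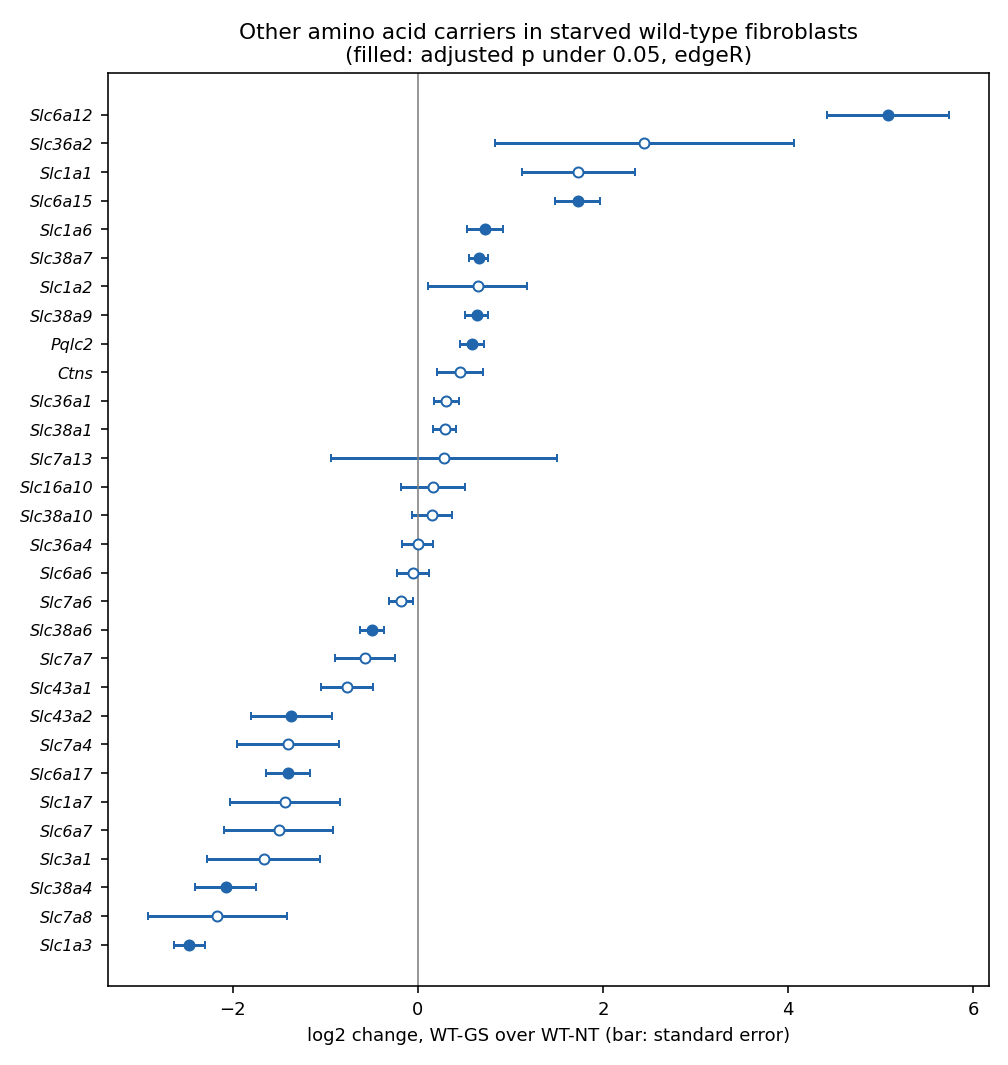
Log2 change in WT-GS over WT-NT (horizontal axis; bars are standard errors) for the 30 other amino acid carriers abundant enough to test; filled symbols passed an adjusted p under 0.05 by edgeR. Slc6a12 lies at 5.07 and Slc1a3 at -2.47; 6 filled symbols lie to the right of 0 and 5 to the left.

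Regulators and other targets of the ATF4 arm numbered 30, of which 15 rose, 4 fell and 11 did not pass in starved wild-type cells, against 16.4% of all genes in each direction. Ddit3, the stress transcription factor CHOP, had 595.6, 445 and 436 CPM in WT-GS, against 78.5, 104, 77.7 and 101 CPM in WT-NT, a log2 change of 2.49 (SE 0.16, edgeR adjusted p = 0.000130). Stc2 rose by 1.93, Ppp1r15a, a phosphatase subunit that reverses the eIF2 block, by 1.72 and Psph, the last enzyme of serine synthesis, by 0.98. The Atf4 mRNA itself had 362, 333 and 365 CPM in WT-GS, against 305, 348, 303 and 232 CPM in WT-NT. These groups overlapped, and its change of 0.29 (SE 0.14) did not pass (edgeR adjusted p = 0.146). In SirT7-/- cells 0 of the 30 passed with all libraries, and 14 rose and 4 fell without the libraries labelled KO-GS 3 and KO-NT 4, against 0% of all genes with all libraries and 19.4% higher and 18.8% lower without the pair.

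Among 26 tested enzymes that use the carried amino acids, 11 rose and 2 fell in starved wild-type cells, against the same background. Got1, the cytosolic aspartate aminotransferase, had 187, 186 and 183 CPM in WT-GS, against 70.3, 66.4, 68.2 and 71.6 CPM in WT-NT (log2 change 1.47, SE 0.06, edgeR adjusted p = 6.59e-05). Dld, a dehydrogenase subunit, and Glud1, the glutamate dehydrogenase, rose by 0.53 and 0.51. Arg1, which splits arginine, fell to 1.11 ± 0.239 CPM in WT-GS, against 11.5 ± 6.50 CPM in WT-NT, a log2 change of -3.32 (SE 0.51). Arg1 is a macrophage gene as well, and the summed macrophage markers were 385, 13.9 and 317 CPM in WT-GS, against 1086, 337, 2214 and 677 CPM in WT-NT. Of 15 macrophage markers 2 fell and 0 rose at the threshold, with a median log2 change of -2.54, against -0.04 over all genes tested. Their part in the Arg1 values was not tested. By library, Arg1 stood at 1.16, 0.853 and 1.33 CPM in WT-GS 1 to 3, against 8.86, 12.6, 19.96 and 4.65 CPM in WT-NT 1 to 4.

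Of 23 tested genes of cystine and glutathione use, the pathway downstream of Slc7a11, 3 rose and 6 fell, against 16.4% of all genes in each direction. G6pdx, which regenerates NADPH, fell by 1.12 on the log2 scale (SE 0.09), Gstm1, a glutathione transferase, by 1.16 (SE 0.18) and Ggt5 by 2.95 (SE 0.53; adjusted p = 0.0923 with 1 spread over all libraries), and Hmox1, the heme oxygenase, rose by 0.60 (SE 0.09). Genes of amino acid sensing by mTORC1 were mixed, with 8 of 32 higher and 5 lower against 16.4% each way over all genes: Seh1l rose by 0.81, Rheb, the direct activator of the kinase, by 0.39 and Wdr59 by 0.36, while Depdc5, a subunit of the inhibitory GATOR complex, fell by 0.99 on the log2 scale. Of 10 tested glucose carriers 4 rose and 0 fell. Of these 4, Slc2a3 and Slc2a8 lost their calls without WT-GS 1, 2 or 3, WT-NT 1 or WT-NT 3, Slc2a3 also without WT-NT 2, Slc2a8 also with library size alone, and Slc2a3, Slc2a6 and Slc2a8 with 1 spread over all libraries (edgeR adjusted p of 0.0514 to 0.182). Slc2a1, the main glucose carrier of most cultured cells, had 189, 251 and 209 CPM in WT-GS, against 129, 134, 139.6 and 94.3 CPM in WT-NT (log2 change 0.84, SE 0.16, edgeR adjusted p = 0.00695). Among fibroblast markers 7 of 10 fell and 0 rose in starved wild-type cells, with summed levels of 24170 to 26100 CPM in WT-GS and 43180 to 50670 CPM in WT-NT. Of 8 tested skeletal muscle markers 4 fell and 1 rose, with summed levels over the list of 95.2 to 248 CPM in WT-GS and 82.1 to 142.3 CPM in WT-NT. The part of these marker changes in the transporter values was not tested.

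Likeness of pattern was measured over the 14 libraries as the root-mean-square difference (RMS) between log2 CPM values centred on each gene's mean. For this measure the CPM values were scaled with TMM factors. A smaller RMS is a closer pattern. Libraries of a group share medium and genotype, and the measure is a description. It includes the libraries labelled KO-GS 3 and KO-NT 4; over the other 12 libraries, an alternative chosen after seeing the data, the 30 genes named here lay at an RMS of 0.065 to 0.278, and 12 of the 30 were still among the nearest 3 of their transporter, so the ranking rests in part on those libraries. Closest to Slc6a9 were Syvn1 at an RMS of 0.120, Calr at 0.148 and Pdia6 at 0.158, against a spread of 0.885 of Slc6a9 about its own mean. Syvn1 is a ligase of protein degradation at the endoplasmic reticulum, and Calr and Pdia6 are a chaperone and a folding enzyme there. Closest to Slc3a2 were Fkbp2 at 0.171, Vimp at 0.182 and Rpn1 at 0.187. Closest to Slc7a5 were Shmt2 at 0.105 and Pycr1 at 0.127, mitochondrial enzymes of serine and proline metabolism, and Imp3 at 0.139. Over the other 12 libraries Fkbp2 ranked 30 for Slc3a2 and Pycr1 ranked 18 for Slc7a5.

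For Slc7a1 the nearest genes were Pvr, Wsb1 and Slc20a1, at 0.139 to 0.159, and for Slc7a3 they were Hsd3b7, Satb1 and Phyhd1, at 0.239 to 0.267. For Slc7a2 the nearest were Pard3b, Lhfpl2 and Aldh6a1, at 0.208 to 0.220. Slc1a4 lay nearest to Zfp960, Slc25a30 and Leprotl1, at 0.076 to 0.081, and Slc38a2, whose own spread was 0.120, to Vps26b, Scaper and Luc7l3, at 0.071 to 0.073. Without the libraries labelled KO-GS 3 and KO-NT 4, none of the genes named for Slc7a2 and Slc38a2 stayed among the nearest 3. The transporters that fell in starved wild-type cells had Tmem120b, Zdhhc16 and Lrrc8e, at 0.086 to 0.099, nearest to Slc7a11, and Srrt, Rara and Bcl9l, at 0.118 to 0.142, nearest to Slc1a5. Among the transporters themselves the closest pair was Slc7a11 with Slc1a5 at 0.254, followed by Slc7a1 with Slc1a4 at 0.261, and the farthest was Slc7a3 with Slc1a5 at 1.528.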

How the data were processed

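RNA was sequenced from mouse embryonic fibroblasts in 14 libraries. The authors deposited a single table of estimated counts, all whole numbers, by gene symbol (24015 entries). Per the submitters' processing notes, FastQC 0.11.3, Trimmomatic 0.36, HISAT2 2.1.0, SAMtools, StringTie 1.3.3 and DESeq2 1.18.1 were used on build mm9; their roles, the annotation, the strand setting and the pairing of reads are not given in the sources used here. Without a stated strand setting, reads of overlapping antisense genes cannot be told apart. Dates replace the symbols of 27 entries. Total counts ran from 59788270 to 91607861, and a count of 0 allows up to 0.0502 CPM in the shallowest library (3 counts as the limit, counting error only).

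Counts were tested with edgeR 4.0.16 in R 4.3.3 (quasi-likelihood F-test, robust), with TMM factors (0.968 to 1.03) and filterByExpr (minimum count 10, minimum total count 15) over all 14 libraries, which left 15666 genes. Each comparison between 2 groups was fitted on its own libraries and the difference between the genotypes' responses on all 14. P-values were adjusted by Benjamini-Hochberg over all genes tested, and calls were made at 0.05. Standard errors were worked back from the F-test. CPM uses the library total without TMM. Positions of libraries and likeness of pattern instead used log2 CPM with TMM factors and a pseudocount of 1. Ratios of light to heavy chain took a pseudocount of 1 and an exact permutation test over libraries (scipy 1.17.1). Exon lengths came from a mouse annotation of another build and promoters from RefSeq on GRCm38.p6, joined by symbol.

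Alternatives were DESeq2 1.42.0, limma-voom (limma 3.58.1), RLE factors, no scaling beyond library size, no filter on low counts, a filter at 1 CPM throughout a group with mean count 50, all 14 libraries in every fit, replicate number as a block, leaving out the libraries labelled KO-GS 3 and KO-NT 4, and leaving out each library in turn. The scripts were tested on simulated data. The transporters, the lists, the tests and the libraries left out were chosen with earlier results of these data known. Genes named are Sirt7, the transporters, up to 4 called genes with the smallest p per list in wild-type starvation, carriers where their list is described singly, Slc6a12, Slc6a6, Atf4 and Ddit3, and the 3 genes of closest pattern for transporters with a mean of at least 5 CPM.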

Additional observations from a re-analysis of the deposited data

Results flagged for a closer look

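In 7 of 20 groups of 4 libraries examined (10 transporters in KO-NT and WT-NT), 1 library stood apart from the other 3 beyond Dixon's critical value. For independent groups, chance alone sets about 1 in 20 apart. In all 7 it was the library labelled KO-NT 4, already singled out above. These are thus not 7 separate events, and the rate of 1 in 20 does not apply to their count. KO-NT 4 was the highest of its group for Slc7a1, at 364.6 CPM against 191 to 203 CPM in the other KO-NT libraries, for Slc7a2, at 57.94 CPM against 16.9 to 22.3 CPM, and for Slc7a3, at 60.13 CPM against 9.25 to 12.5 CPM. The same held for Slc3a2, at 544.9 CPM against 194 to 237 CPM, for Slc1a4, at 187.4 CPM against 89.7 to 105 CPM, and for Slc6a9, at 157.4 CPM against 37.4 to 43.6 CPM. For Slc38a2 it was the lowest, at 326.3 CPM against 400.9 to 412.5 CPM. The groups of 3 libraries, among them KO-GS with the library labelled KO-GS 3, were too small for this examination.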

How the results depend on the processing

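Over alternatives that kept all libraries, starvation in wild-type cells gave 4063 to 6434 called genes and 5 to 8 called transporters, the fewest with 1 spread over all 14 libraries. Leaving out 1 library gave 2789 to 6626 genes and 6 to 9 transporters. Of 859 values of single transporters under the alternatives, 802 kept their direction and their side of the threshold and 39 reversed. With their direction kept, 12 newly passed and 6 no longer passed. A value that reversed was counted only as reversed. Among these, Slc3a2 in SirT7-/- starvation without KO-NT 4 and KO-GS 3 also newly passed, at 0.669 (edgeR adjusted p = 0.0499). Most of the 859 belong to comparisons that called no transporter, where an uncalled value of the same sign counts as kept. In wild-type starvation Slc7a11 lost its call under 5 of 16 alternatives. In SirT7-/- cells starvation gave 626 genes by DESeq2, 5980 genes and 7 transporters without KO-NT 4 and KO-GS 3, and 0 to 2069 genes and 0 to 2 transporters without single libraries. SirT7 loss gave 14 genes by DESeq2, 4 without the pair and 0 to 4 without single libraries in glucose-free medium, and 52, 5 and 0 to 5 in normal medium. The difference between responses gave 5 genes by DESeq2 and 0 to 1 without single libraries. Whether the replicate numbers pair the samples was not settled. Deviations from group means of same-numbered libraries had correlations from -0.12 to 0.46. Those of comparisons with SirT7-/- cells cannot decide the question, since KO-GS 3 and KO-NT 4 enter the SirT7-/- group means. In wild-type starvation, which holds neither library, the correlations were -0.01, 0.24 and 0.19 for replicates 1, 2 and 3. These few values of mixed size left the question open. With the numbers as a replicate block, wild-type starvation gave 5842 genes and 8 transporters, with Slc7a2 at 1.06 (edgeR adjusted p = 0.0161). With the same block, SirT7 loss gave 0 genes in either medium. The cause of each change below was not tested.

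Reversed log2 values of starvation in SirT7-/- cells were 0.236 for Slc3a2 and -0.0314 for Slc38a2 with the replicate block, and 0.137 for Slc7a5, 0.669 for Slc3a2 and -0.079 for Slc38a2 without the pair. Without the pair, SirT7 loss reversed in glucose-free medium for Slc7a2 (0.00206) and Slc6a9 (0.136) and in normal medium for Slc7a2 (-0.307), Slc7a3 (-0.516), Slc1a4 (-0.0897) and Slc38a2 (0.0455). The difference between responses reversed for Slc7a2 (0.309), Slc7a3 (0.454), Slc1a4 (0.0766), Slc1a5 (-0.227) and Slc6a9 (0.0774) without the pair and for Slc7a11 (0.0195) with library size alone. Leaving out single libraries moved the sign of starvation in SirT7-/- cells for Slc7a2 (-0.069 to 0.909), Slc7a5 (-0.471 to 0.0467), Slc3a2 (-0.520 to 0.355), Slc38a2 (-0.029 to 0.107) and Slc6a9 (-0.0401 to 1.29), and of wild-type starvation for Slc6a6 (-0.183 to 0.0356). It did so for SirT7 loss in glucose-free medium for Slc7a2 (-0.603 to 0.0511) and Slc6a9 (-0.850 to 0.136) and in normal medium for Slc7a2 (-0.307 to 0.544), Slc7a3 (-0.516 to 0.791), Slc1a4 (-0.0897 to 0.310) and Slc38a2 (-0.0745 to 0.0455). For the difference between responses it did so for Slc7a2 (-0.834 to 0.144), Slc7a3 (-1.61 to 0.0652), Slc7a11 (-0.2255 to 0.0456) and Slc1a5 (-0.042 to 0.348). Depth did not limit the transporters, whose lowest level was 9.25 CPM.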
